A study of Mus musculus with 23 samples.

Results

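Nuclear-encoded oxidative phosphorylation genes were the genes whose symbols name the subunits and assembly factors of the respiratory complexes and of ATP synthase, and 90 of them were followed across 4 genotypes of mouse hippocampus. A pattern of gene symbols (Nduf, Sdh, Uqcr, Cyc1, Cox4 to Cox8 and Atp5) matched 96 rows of a table of 21785 genes, of which 19064 had values. Of the 96, Atp5j, Atp5o and Ndufv3 were set aside by the rule, and Ndufb4b, Cox7b2 and Cox8c had a mean below the minimum of 0.5 RPKM (0.059, 0.307 and 0.006 RPKM). The 90 members were 38 complex I genes, 8 complex I assembly factors, 4 complex II genes, 9 complex III genes, 16 complex IV genes and 15 complex V genes. The unit, RPKM, divides the reads of a gene by its length and by the depth of the library, so levels can be set side by side between genes.

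The series has 23 libraries of hippocampal messenger RNA, whose names give the genotype, the sex as F or M and a number. They comprise 5 labelled Dp16;D-KO/K-KO, 6 labelled Dp16/D-KO, 7 labelled Dp16 and 5 labelled WT. All groups but WT carry the Dp16 duplication, an extra copy of the part of mouse chromosome 16 that corresponds to human chromosome 21, used as a model of Down syndrome, and the title describes D-KO and K-KO as bringing Dyrk1a and Kcnj6 back to normal dosage. The labels form 2 batches: batch 2 has 13 libraries given as polyA RNA from mice of more than 90% C57/B6 background, with no age given, and batch 1 has 10 libraries given as total RNA from C57BL/6 mice of 2 to 3 months. Batch 2 holds 3 libraries of Dp16;D-KO/K-KO, 3 of Dp16/D-KO, 4 of Dp16 and 3 of WT, and batch 1 holds 2, 3, 3 and 2. Molecule label and background change together with the batch and cannot be told apart. Nothing in the labels says that a library is 1 animal, so p-values measure the spread between these libraries.

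Dyrk1a was at 22.31 to 26.03 RPKM in Dp16;D-KO/K-KO libraries, 21.30 to 26.54 in those labelled Dp16/D-KO and 22.68 to 26.61 in Dp16, against 15.36 to 18.04 in WT. Kcnj6 was at 23.10 to 27.13, 23.40 to 27.60 and 23.16 to 31.89 RPKM in the same 3 groups, against 15.28 to 20.36 in WT. For both genes the ranges of the libraries labelled as corrected overlapped that of Dp16 and lay above that of WT. Whether the RPKM covers the deleted parts of the genes is not known, so the correction cannot be judged from these levels. The groups are therefore called by their labels throughout. Ddx3y, a gene of the Y chromosome, was at 12.65 RPKM in WT F1 although its letter is F, and at 0.01 in WT M3 although its letter is M, so results are also given without these 2 libraries. The depth read from the steps between low values was 14.75 to 17.3 M reads per library (median 16.6). The 7 neuron markers summed to between 2060 and 2870 RPKM in every group, and all were above 0. In bulk tissue, fewer cells of a type and less RNA per cell cannot be told apart.

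Oxidative phosphorylation is the process by which mitochondria turn the electrons of nutrients into ATP. Complex I takes electrons from NADH and complex II from succinate, complex III passes them to cytochrome c, complex IV gives them to oxygen, and complex V, the ATP synthase, uses the proton gradient that complexes I, III and IV build. Most subunits are encoded in the nucleus and the rest in mitochondrial DNA, and the mitochondrial genes were not analysed here. Neurons depend on this process for most of their ATP, and transcription factors such as NRF1, GABPA, YY1 and ESRRA are known to bind the promoters of many of these genes.

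Promoters are shown first for 4 members on which the results below turn: the only member that passed the test between genotypes (Ndufab1), a member with matches to the motifs of both NRF1 and GABPA (Uqcr11), the most abundant member (Cox8a) and the most variable one (Cox8b). The windows are RefSeq sequence of GRCm38.p6, from 250 bases before the start of the gene to 50 after it, read 5′ to 3′ on the minus strand, with motif matches in capitals. They lie at chr7:122101799-122102098 (Ndufab1), chr10:80406772-80407071 (Uqcr11), chr19:7217567-7217866 (Cox8a) and chr7:140900397-140900696 (Cox8b).
Ndufab1: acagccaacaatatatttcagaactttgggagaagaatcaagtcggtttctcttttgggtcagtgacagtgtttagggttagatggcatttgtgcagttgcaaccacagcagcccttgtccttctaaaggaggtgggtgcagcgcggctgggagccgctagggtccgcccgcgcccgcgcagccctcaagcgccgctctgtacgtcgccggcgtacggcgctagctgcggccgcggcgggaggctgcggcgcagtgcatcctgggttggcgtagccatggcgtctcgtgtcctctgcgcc
Uqcr11: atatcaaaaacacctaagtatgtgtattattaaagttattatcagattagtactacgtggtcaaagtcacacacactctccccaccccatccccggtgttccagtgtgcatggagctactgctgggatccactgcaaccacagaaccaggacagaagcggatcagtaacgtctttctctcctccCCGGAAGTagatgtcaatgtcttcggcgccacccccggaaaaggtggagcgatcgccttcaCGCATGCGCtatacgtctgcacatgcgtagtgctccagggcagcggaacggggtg
Cox8a: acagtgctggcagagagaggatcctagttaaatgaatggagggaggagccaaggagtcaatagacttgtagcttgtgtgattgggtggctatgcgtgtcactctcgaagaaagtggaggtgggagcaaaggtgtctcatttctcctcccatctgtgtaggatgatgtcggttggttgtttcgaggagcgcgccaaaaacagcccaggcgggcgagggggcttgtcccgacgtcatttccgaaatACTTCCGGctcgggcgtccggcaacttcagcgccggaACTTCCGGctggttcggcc
Cox8b: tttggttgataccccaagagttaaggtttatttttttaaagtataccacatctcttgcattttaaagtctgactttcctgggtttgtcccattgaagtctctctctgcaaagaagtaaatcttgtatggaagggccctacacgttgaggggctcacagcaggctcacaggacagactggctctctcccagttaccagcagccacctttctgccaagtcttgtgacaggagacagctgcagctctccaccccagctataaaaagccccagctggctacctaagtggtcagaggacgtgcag
The window of Uqcr11, a small complex III subunit, held the GABPA letters 66 bases before the start and the NRF1 letters 5 bases before it, counted to the first base of the match. That of Cox8a held the GABPA letters 6 bases before the start and again 31 bases after it. The windows of Ndufab1 and Cox8b held none of the 4 motifs.

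Of the 90 members, 72 were found in the promoter table, with 76 windows. The motifs were searched as fixed letters on both strands, and no motif contains another. GCGCATGCG, the NRF1 motif, stood in 10 of the 72 members and 13.2% of their windows, against 1.75% of all 32851 windows of the same length. Those members were Atp5g2, Atp5k, Atp5l, Cox6a1, Ndufa11, Ndufa8, Ndufaf4, Ndufaf5, Uqcr11 and Uqcrc1. AAGATGGCG, the YY1 motif, stood in 7 members and 9.2% of their windows, against 1.4% of all, and ACTTCCGG, the GABPA motif, in 5 members and 6.6%, against 3.89% of all. TCAAGGTCA, the ESRRA motif, stood in Atp5g3 and Sdhd, or 2.6% of member windows, against 0.42% of all. A match describes letters and is not a shown binding site.

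The members were among the abundant messenger RNAs of the hippocampus. Their median mean level was 95.4 RPKM, against 9.6 RPKM over all 13971 tested genes, and 31 of the 500 most abundant genes were members. The subunit genes of complex I had a median of 84.9 RPKM, with Ndufa4, listed by name here and known as a complex IV subunit, at 325 RPKM and Ndufb9 at 180. The 7 core subunits, which carry the flavin and iron-sulfur clusters, had a median of 69.4 RPKM. The 8 assembly factors, which help to build complex I and are not part of it, were lower, with a median of 15.1 RPKM and a range from Ndufaf6 at 5.18 to Ndufaf5 at 24.4.

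The 4 genes of complex II, the only complex encoded wholly in the nucleus, ran from 41.4 RPKM for the membrane anchor Sdhd to 118 for the flavoprotein Sdha. Complex III genes had a median of 114 RPKM, with Uqcr10 at 162 and Uqcr11 at 161. Complex V genes had the highest median, 154 RPKM, and among them Atp5b, the catalytic beta subunit of the F1 head, stood at 517 RPKM and Atp5a1, the alpha subunit, at 285. Complex IV was the most spread, from Cox8a at 641 and Cox6a1 at 508 RPKM to Cox4i2 at 1.18.

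**Figure D1:**
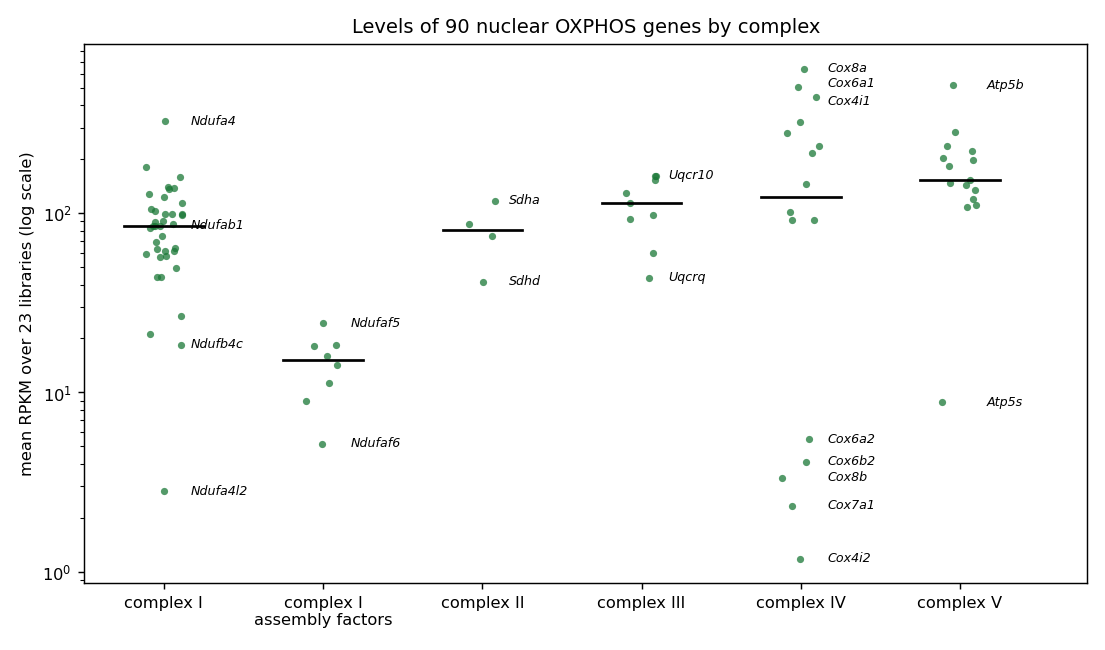
Mean level of each of the 90 members over 23 libraries in RPKM on a log axis, by complex, with the median of each complex as a line. Complex IV holds both the most abundant member, Cox8a, and the least abundant, Cox4i2, and the 8 assembly factors lie between 5.18 and 24.4 RPKM.

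The low complex IV genes are isoforms known from other tissues, and in each pair the widely expressed partner made up nearly all of the level. Cox6a1, the widely expressed form, was 92.9 times as high on average as Cox6a2, the heart and skeletal muscle form, which supplied between 0.465% and 2.45% of their summed RPKM per library. Cox7a2 was 39.1 times as high as the muscle form Cox7a1, Cox8a 191 times as high as the muscle form Cox8b, Cox6b1 68.3 times as high as the testis form Cox6b2, and Cox4i1 376 times as high as Cox4i2, the lung form. Ndufa4 was 115 times as high as its hypoxia-induced relative Ndufa4l2.

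Of these minor isoforms, 4 were the members that varied most between libraries. The SD of the log2 level over 23 libraries was 1.48 for Cox8b, 0.62 for Cox6b2, 0.59 for Cox6a2 and 0.53 for Cox7a1. It was 0.40 for Cox4i2 and 0.26 for Ndufa4l2. The median was 0.18 over the 85 members with a mean of at least 5 RPKM and 0.14 over all 9391 genes at that level. Apart from Cox6a2 (mean 5.47 RPKM), these isoforms lie below that level, with means from 1.18 (Cox4i2) to 4.11 RPKM (Cox6b2). The part of low read counts in their spread was not tested. Cox8b was at 2.76, 2.62, 4.15, 4.44 and 0.17 RPKM in Dp16;D-KO/K-KO F1, F2, M1, M2 and M3. It ranged from 0.52 to 3.44 RPKM in Dp16/D-KO with a median of 1.39, and from 0.51 to 15.8 in Dp16 with a median of 1.88. In WT it was at 0.52, 3.77, 4.02, 0.70 and 4.26 RPKM in F1, F2, M2, M3 and M4. The groups overlapped, and the 3 highest values were those of Dp16 M2 (15.76 RPKM), F2 (11.78) and F3 (7.91).

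The level of Cox8b moved with markers of the choroid plexus, the tissue beside the hippocampus that makes cerebrospinal fluid. The 7 choroid plexus markers, led by Ttr, summed to between 26.9 and 3870 RPKM in Dp16;D-KO/K-KO, 14.1 and 3190 in Dp16/D-KO, 32.8 and 3650 in Dp16, and 17.8 and 2430 in WT, and none was at 0 in all libraries. In the 11 libraries with a sum of 1552.2 RPKM or more Cox8b was at 2.62 to 15.76 RPKM, and in the 12 with a sum of 615.3 or less it was at 0.17 to 1.89. Cox6b2 was at 4.38 to 8.03 RPKM in the same 11 libraries and at 1.91 to 3.94 in the other 12. Cox7a1 (1.56 to 5.88 and 0.87 to 3.05 RPKM) and Cox6a2 (2.87 to 11.47 and 2.30 to 11.99 RPKM) overlapped. This way of setting the libraries side by side was chosen after the values were seen, and the part of the choroid plexus in these levels was not tested.

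The summed level of the 90 members overlapped between the 4 genotypes. It averaged 10570 ± 1230 RPKM in Dp16;D-KO/K-KO (SD, n = 5), 11050 ± 450 in Dp16/D-KO (n = 6), 10620 ± 630 in Dp16 (n = 7) and 10710 ± 380 in WT (n = 5). The widest spread was that of Dp16;D-KO/K-KO, whose 3 libraries of batch 2 had 9451 to 9964 RPKM and whose 2 libraries of batch 1 had 11900 and 11913. By complex, complex I averaged 3355 ± 381 RPKM in Dp16;D-KO/K-KO, 3515 ± 141 in Dp16/D-KO, 3391 ± 203 in Dp16 and 3430 ± 80.6 in WT. Complex IV averaged 3046 ± 398, 3177 ± 125, 3044 ± 203 and 3117 ± 140 RPKM in the same order of groups, and complex V 2739 ± 319, 2865 ± 133, 2740 ± 179 and 2735 ± 163.

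**Figure D2:**
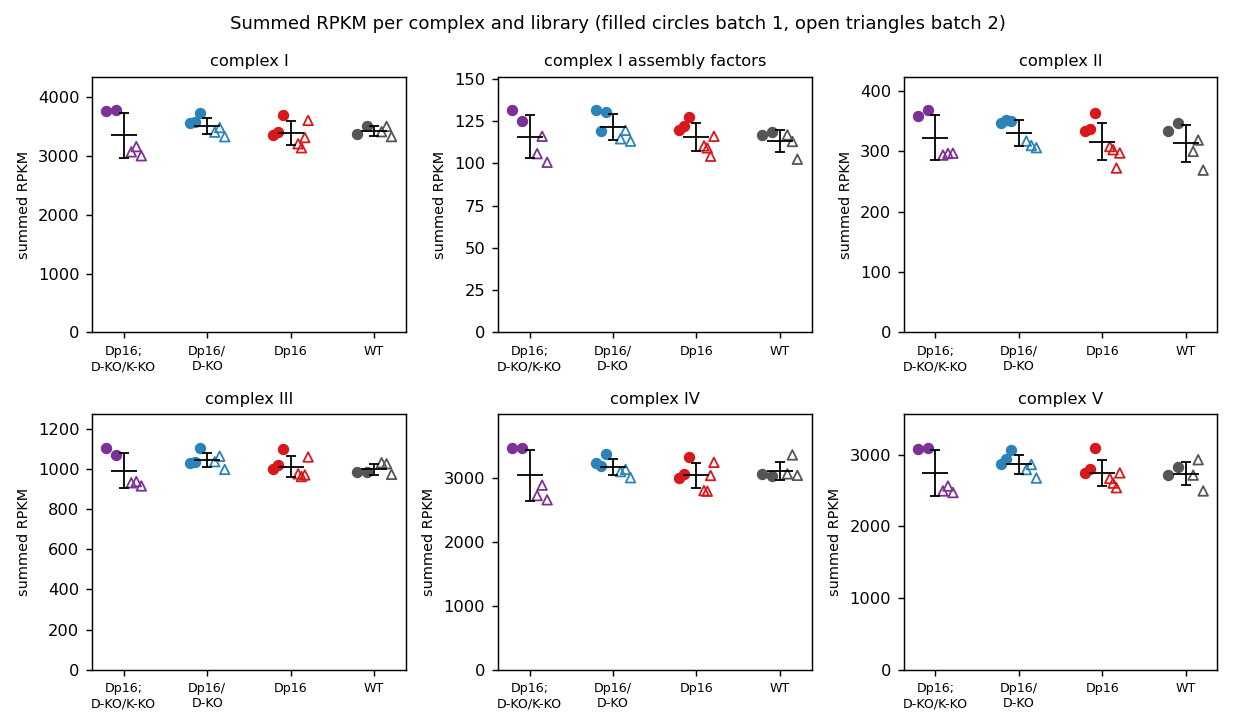
Summed RPKM of the members of each complex in every library, by group, with filled circles for batch 1, open triangles for batch 2, and the group mean and SD in black. The groups overlap in every panel, and in Dp16;D-KO/K-KO the batch 2 libraries lie below the batch 1 libraries.

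Dp16 against WT addresses the effect of the duplication alone on these genes, and none of the 90 members passed the test. Of all 13971 tested genes, 202 were called at an adjusted p under 0.05 (limma with batch and sex letter, Benjamini-Hochberg adjustment), or 1.45%. At an unadjusted p under 0.05 there were 7 of 90 members (7.78%), against 13.8% of all genes, and the authors' deposited table called 0 of the 90. The median log2 change of the members was -0.02, with 41 positive and 49 negative, against -0.01 over all genes. The medians by complex were -0.04 for complex I, 0.01 for its assembly factors, -0.02 for complex III and -0.02 for complex IV. The interaction with the sex letter called 0 members (smallest adjusted p = 0.843, limma). The change with letter M exceeded that with letter F by a median of 0.05 over the members, against -0.02 over all genes. Without WT F1 and WT M3 it did so by 0.17, with 74 positive and 16 negative, against 0.01 over all genes. There WT F2 is the only WT library with the letter F.

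The largest log2 differences in this comparison were those of the variable isoforms and of other subunit genes. Cox8b had a log2 difference of 0.60 (SE 0.82), Cox7a1 of 0.41 (SE 0.30) and Cox6a2 of 0.34 (SE 0.22), with adjusted p of 0.797, 0.572 and 0.534 (limma). Without WT F1 and WT M3 that of Cox8b was -0.51. On the other side stood Atp5e, the epsilon subunit of the F1 stalk, at -0.29 (SE 0.16), Ndufa1 at -0.24 (SE 0.09) and Ndufc1, a subunit of the membrane arm of complex I, at -0.23 (SE 0.11). Their adjusted p were 0.444, 0.215 and 0.372 (limma). The count of called members rested on single WT libraries. Uqcrq, a small subunit of complex III near the ubiquinone site, ranged from 37.25 to 52.32 RPKM in Dp16 with a median of 44.65, and in WT it was at 28.63, 53.29, 30.33, 43.83 and 45.47 RPKM in F1, F2, M2, M3 and M4. The low WT values were those of batch 1, and the groups overlapped. Without WT F2, the highest of the WT values, 3 members were called, namely Uqcrq (log2 change 0.29, adjusted p = 0.0392), Atp5d (0.26, adjusted p = 0.0179) and Ndufc2 (0.26, adjusted p = 0.0423, limma). These were 3.33% of the members, against 186 genes or 1.33% of all genes in the same setting. That setting keeps WT F1 and WT M3, whose letters differ from Ddx3y. Without WT F1 and WT M3, and with WT F2 kept, 0 members were called, while 95 of 13978 genes were. In batch 1 alone Uqcrq was called (log2 change 0.43, adjusted p = 0.0298, limma), as 1 of 49 genes called among 13998. It was there at 41.93 and 38.33 RPKM in Dp16;D-KO/K-KO, 32.19 to 40.39 in Dp16/D-KO, 37.25 to 43.09 in Dp16 and 28.63 and 30.33 in WT.

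Of the 3 genes set aside by the rule, Atp5j and Atp5o rose. Atp5j, a stalk subunit of complex V encoded in the duplicated segment, averaged 241 ± 15 RPKM in Dp16 (SD, n = 7) and 161 ± 12.1 in WT (SD, n = 5), a log2 change of 0.57 (SE 0.05, adjusted p = 5.6e-08, limma). Atp5o, the OSCP subunit of that stalk, also in the segment, averaged 272 ± 23.7 RPKM in Dp16 and 189 ± 22.4 in WT, a log2 change of 0.52 (SE 0.06, adjusted p = 2.3e-06). Ndufv3, a complex I subunit on chromosome 17, had a log2 difference of 0.11 (SE 0.08, adjusted p = 0.570). Both complex V genes were also higher in Dp16/D-KO than in WT (0.64 and 0.61) and in Dp16;D-KO/K-KO than in WT (0.55 and 0.57), while the other 15 complex V genes had a median near 0 in Dp16 against WT.

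Among known regulators of these genes, those of the segment rose with the duplication. Gabpa, which encodes the DNA-binding subunit of GABP, averaged 10.1 ± 0.705 RPKM in Dp16 (SD, n = 7) and 7.4 ± 1.2 in WT (SD, n = 5), a log2 change of 0.46 (SE 0.08, adjusted p = 0.00337, limma). Nrip1, a corepressor of nuclear receptors, averaged 9.81 ± 0.344 RPKM in Dp16 and 6.93 ± 0.662 in WT, a log2 change of 0.50 (SE 0.06, adjusted p = 6.4e-06). Ppargc1a, Nrf1, Tfam and Esrra had log2 differences of 0.08, -0.01, -0.11 and -0.08, and none passed the test. Of the 5 members with the GABPA letters in the promoter, 1 had a positive log2 difference in Dp16 against WT, with a median of -0.04, and of the 67 without them 34 had a positive one. In Dp16;D-KO/K-KO against WT 3 of the 5 were positive (median 0.01), and in Dp16/D-KO against WT also 3 (median 0.05).

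**Figure D3:**
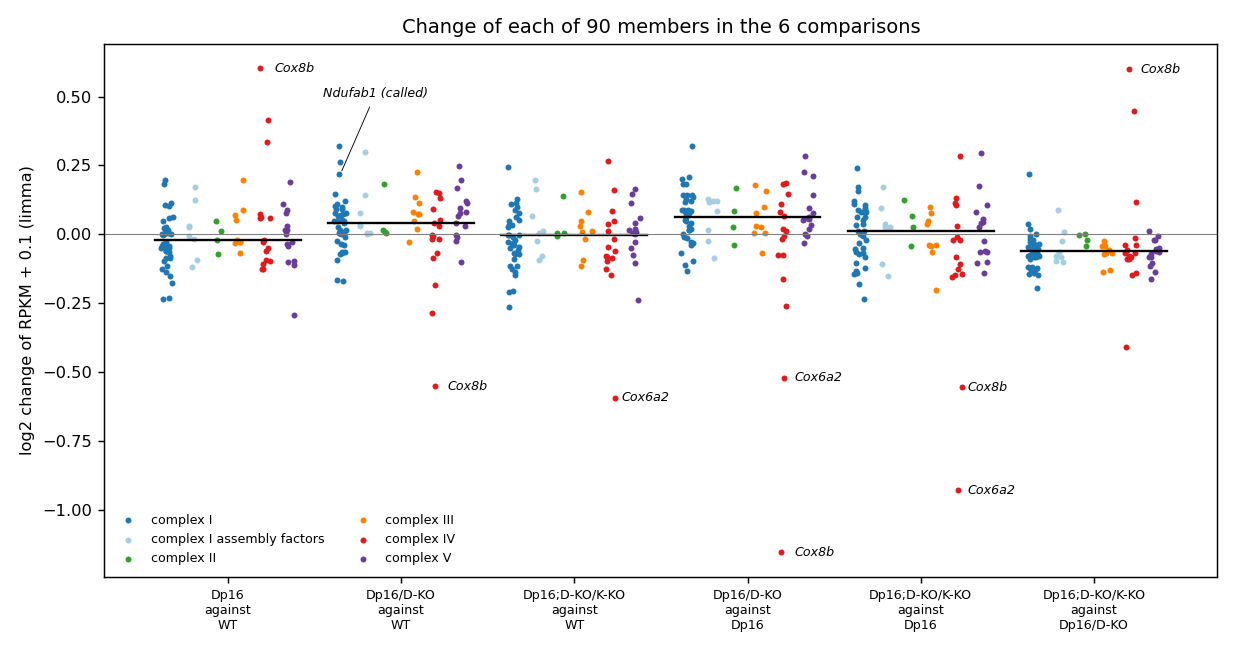
Log2 change of each of the 90 members in the 6 comparisons, coloured by complex, on the log2(RPKM + 0.1) scale, with the median of the members as a black line. Only Ndufab1 in Dp16/D-KO against WT was called, the points more than 0.5 from 0 are Cox8b and Cox6a2, and the median lies lowest, at -0.06, in Dp16;D-KO/K-KO against Dp16/D-KO.

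The comparison of Dp16/D-KO with WT gave the only called member. Ndufab1, the mitochondrial acyl carrier protein, which is a complex I subunit and also carries the chains of mitochondrial fatty acid synthesis, ranged from 80.61 to 101.79 RPKM in the 6 libraries labelled Dp16/D-KO, with a median of 94.1. In WT it was at 79.52, 87.68, 76.50, 77.91 and 79.37 RPKM in F1, F2, M2, M3 and M4. The groups overlapped only through WT F2, and within batch 2 all 3 libraries labelled Dp16/D-KO (101.79, 99.76 and 100.28 RPKM) lay above all 3 WT libraries. It averaged 92.9 ± 8.82 RPKM in Dp16/D-KO (SD, n = 6) and 80.2 ± 4.36 in WT (SD, n = 5), a log2 change of 0.22 (SE 0.05, adjusted p = 0.0241, limma). Of all tested genes 179, or 1.28%, were called in this comparison, against 1 of the 90 members.

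The call of Ndufab1 did not hold under several settings. The adjusted p (limma) was 0.0700 without WT F1 and WT M3, 0.0541 in batch 2 alone (log2 change 0.29) and 0.510 in batch 1 alone (0.12), and leaving out WT M2, WT M4, or any of F2, F3 and M3 of Dp16/D-KO gave 0.0535 to 0.0842. It was 0.141 without batch in the model and 0.122 with only the 2 groups in the fit. Ndufc2, another complex I subunit, had a log2 difference of 0.26 (SE 0.07, adjusted p = 0.0637) and Atp5d, the delta subunit of the F1 stalk, 0.25 (SE 0.07, adjusted p = 0.0728). Without WT F2, 4 members were called, namely Atp5d (log2 change 0.32, adjusted p = 0.00379), Ndufc2 (0.32, adjusted p = 0.00990), Uqcrq (0.32, adjusted p = 0.0221) and Ndufab1 (0.25, adjusted p = 0.0126, limma). These were 4.44% of the members, against 199 genes or 1.42% of all genes in the same setting. The median over the members was 0.04, with 64 positive and 26 negative, against -0.01 over all genes and 0.04 over the 696 tested genes with transcripts under 1000 bases. Those 696 genes include some of the members. The authors' deposited table called 0 of the 90, its smallest adjusted p being 0.113.

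In Dp16/D-KO against Dp16, 0 of 90 members were called with limma, while 20 of all genes, or 0.143%, were. At an unadjusted p under 0.05 there were 17 members (18.9%), against 15.2% of all genes, and the authors' deposited table called 0. The median log2 change of the members was 0.06, with 66 positive and 24 negative, against 0.01 over all genes and 0.05 over tested genes with transcripts under 1000 bases, some of which are members. Complex I genes had a median of 0.07, the assembly factors 0.10, complex V 0.06 and complex IV 0.00. Ndufab1 was again among the highest, with a log2 difference of 0.20 (SE 0.04, adjusted p = 0.0646), and it was called without WT F1 and WT M3 (adjusted p = 0.0442), without WT M3 (0.0355), without Dp16/D-KO F1 (0.0315) and with only the 2 groups in the fit (0.0470, limma). The count over all genes moved as well. It was 89 of 13978 without WT F1 and WT M3, and 0 to 105 with 1 library left out. The other large differences were those of Ndufa4l2 at 0.32 (SE 0.12), Atp5e at 0.28 (SE 0.16) and Atp5j2, the f subunit of complex V, at 0.23 (SE 0.08). Cox8b was at -1.16 (SE 0.78) and Cox6a2 at -0.52 (SE 0.21). The 7 oligodendrocyte and myelin markers summed to between 1240 and 2590 RPKM in Dp16/D-KO (median 2070), against 2160 and 3170 in Dp16 (median 2880), and their part in these differences was not tested.

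In Dp16;D-KO/K-KO against Dp16, 0 of 90 members were called with limma and 5 of all genes, or 0.0358%. There were 9 members at an unadjusted p under 0.05, against 11.3% of all genes, and the authors' deposited table called 0. The member nearest to a call was Cox6a2, which has been described in mice in parvalbumin interneurons besides muscle. It was at 3.44, 3.48, 3.35, 2.87 and 4.93 RPKM in Dp16;D-KO/K-KO F1, F2, M1, M2 and M3, and it ranged from 3.77 to 11.99 in Dp16 with a median of 6.90. The groups overlapped through Dp16;D-KO/K-KO M3 and the 2 lowest Dp16 libraries. Cox6a2 averaged 3.61 ± 0.775 RPKM in Dp16;D-KO/K-KO (SD, n = 5) and 7.36 ± 3.32 in Dp16 (SD, n = 7), a log2 difference of -0.93 (SE 0.22, adjusted p = 0.128, limma).

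The 2 highest values of Cox6a2 were those of Dp16 M4 (11.99 RPKM) and M2 (11.47). The 5 interneuron markers summed to between 458 and 599 RPKM in Dp16;D-KO/K-KO, 497 and 608 in Dp16/D-KO, 487 and 680 in Dp16, and 495 and 630 in WT, with the highest sum in Dp16 M4. In Dp16 M2 the sum was 598.3 RPKM, near the 598.6 of Dp16;D-KO/K-KO M3, where Cox6a2 was at 4.93 RPKM. The part of interneurons in the level of Cox6a2 was not tested. Leaving out WT M3, which is in neither group but shares the model, gave an adjusted p of 0.0409 (limma). The median over all 90 members was 0.01, on the log2 scale, with 47 positive and 43 negative, against 0.02 over all genes. This median joins 2 batches that leaned opposite ways. In batch 2 alone it was -0.06, with 26 positive and 64 negative, and in batch 1 alone 0.08, with 67 positive and 23 negative. The interaction term with batch called 0 of the 90 members (smallest adjusted p = 0.73, limma). At an unadjusted p under 0.05 there were 14 (15.6%), against 5.61% of all genes.

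**Figure D4:**
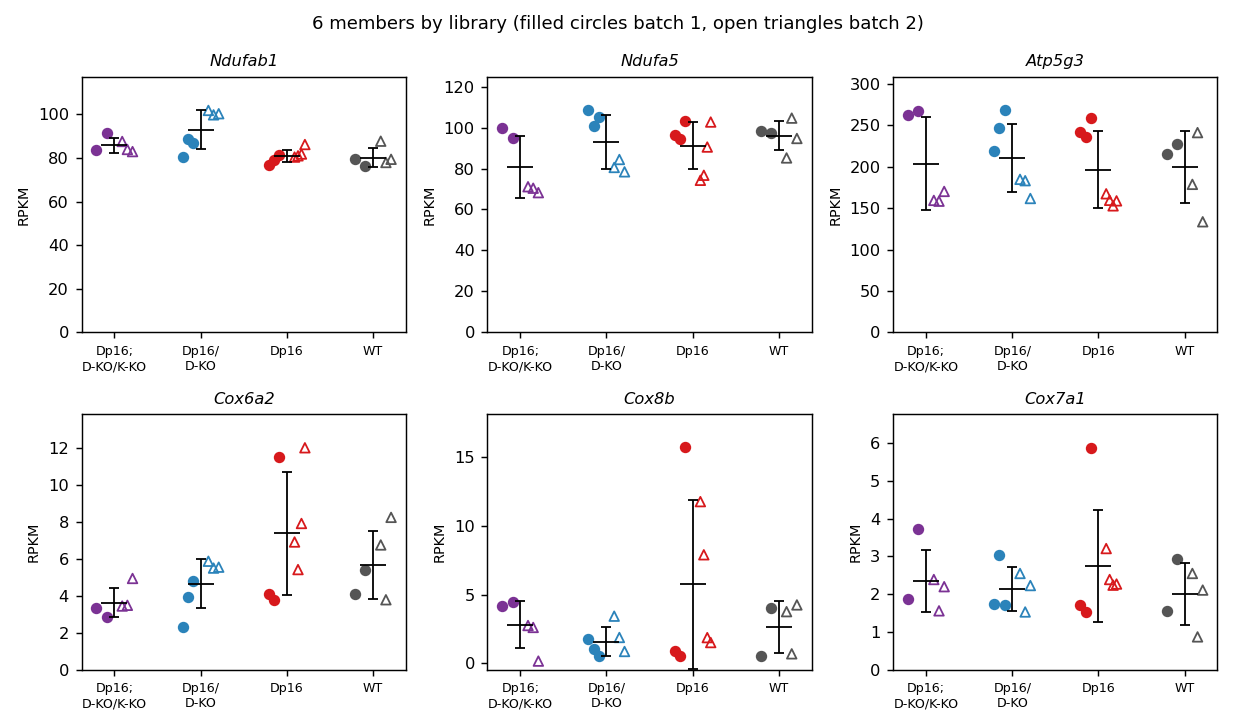
RPKM of 6 members in every library, by group, with filled circles for batch 1, open triangles for batch 2, and the group mean and SD in black. Ndufab1 is higher in Dp16/D-KO than in WT, Atp5g3 splits by batch apart from WT M3, and Ndufa5 is low in the 3 batch 2 libraries of Dp16;D-KO/K-KO. The highest values of Cox8b and Cox7a1 are those of Dp16 M2, and the highest of Cox6a2 is that of Dp16 M4.

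In Dp16;D-KO/K-KO against Dp16/D-KO the members leaned to one side without a single call. None of the 90 was called with limma, and neither was any of the 13971 genes (0.0%). At an unadjusted p under 0.05 there were 8 members (8.89%), against 1260 of all genes (9.02%), so the shares were alike. The authors' deposited table called 0 members. The log2 difference was negative for 79 of 90 members and for 6760 of 13971 genes, with medians of -0.06 and 0.00. It was negative for 34 of 38 complex I genes, 6 of 8 assembly factors, 3 of 4 complex II genes, 9 of 9 complex III genes, 13 of 16 complex IV genes and 14 of 15 complex V genes. Ndufa5, a subunit of the part of complex I that hands electrons to ubiquinone, was at -0.20 (SE 0.07, adjusted p = 0.392, limma), and Atp5s, known as coupling factor B, at -0.16 (SE 0.07, adjusted p = 0.470). The members share libraries, so their directions are not independent.

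The side to which they leaned was not the same in the 2 batches. In batch 2 alone the median was -0.15, with 4 positive and 86 negative members, and in batch 1 alone it was 0.04, with 63 positive and 27 negative. A test of the difference between the batches (limma, interaction term) called 0 of the 90 members, with a smallest adjusted p of 0.762, and 16 (17.8%) had an unadjusted p under 0.05, against 5.52% of all genes. In batch 2 the members summed to 9451 to 9964 RPKM in Dp16;D-KO/K-KO and to 10427 to 10977 in Dp16/D-KO, with no overlap. In batch 1 they summed to 11900 and 11913 RPKM in Dp16;D-KO/K-KO and to 11168 to 11756 in Dp16/D-KO. These sums did not overlap either, but here Dp16;D-KO/K-KO was the higher group. Dp16;D-KO/K-KO has the letter M only in batch 1 and 2 libraries with the letter F in batch 2.

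Dp16;D-KO/K-KO against WT showed the same split. None of the 90 members was called with limma, while 105 genes, or 0.752%, were. There were 7 members at an unadjusted p under 0.05 (7.78%), against 9.83% of all genes, and the authors' deposited table called 0. The median was 0.00, with 43 positive and 47 negative, but -0.12 in batch 2 alone (13 positive) and 0.11 in batch 1 alone (70 positive). The interaction term of this comparison with batch again called no member (smallest adjusted p = 0.251, limma), with 22 (24.4%) at an unadjusted p under 0.05, against 10.6% of all genes. Ndufa5 was at 71.10, 70.38, 99.71, 94.74 and 68.21 RPKM in Dp16;D-KO/K-KO F1, F2, M1, M2 and M3, and at 98.33, 85.16, 97.32, 104.60 and 94.66 in WT F1, F2, M2, M3 and M4. The 3 low values were those of batch 2, and the log2 difference was -0.26 (SE 0.08, adjusted p = 0.142), but 0.00028 in batch 1 alone.

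The related gene lists gave few calls. Of 42 assembly factors outside the symbol pattern, 17 genes of the citric acid cycle and pyruvate dehydrogenase, 12 carriers and synthase partners and 81 cytosolic ribosomal protein genes, 0 were called in any of the 6 comparisons. Of 76 mitochondrial ribosomal protein genes, Mrps18c (log2 change 0.28, adjusted p = 0.0170) and Mrpl38 (0.23, adjusted p = 0.0212, limma) were higher in Dp16/D-KO than in WT, and none was called elsewhere. Of 15 regulators, Gabpa and Nrip1 were higher in each carrier group than in WT, and Gabpb2, which encodes a partner subunit of GABP, was lower in Dp16/D-KO than in WT (-0.34, adjusted p = 0.0331). In Dp16;D-KO/K-KO against Dp16/D-KO the mitochondrial ribosomal protein genes had a median of -0.08 with 67 of 76 negative, and the cytosolic ones -0.03 with 66 of 81 negative. The tested genes with transcripts under 1000 bases, which include some of the members, had a median of -0.04 with 437 of 696 negative. The 12 carriers and synthase partners, which include the member Atp5mpl, had a median of -0.08 with 12 negative. The citric acid cycle and pyruvate dehydrogenase genes had -0.05 with 15 of 17 negative, and the assembly factors outside the pattern -0.04 with 28 of 42 negative. The regulators had a median of 0.03 with 6 of 15 negative. A negative lean in this comparison was thus also seen in ribosomal protein genes and other mitochondrial lists, nearly all of whose genes are outside the members.

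Most members differed between the batches. In batch 2 against batch 1 (limma, with group and sex letter in the model), 64 of 90 members were called, or 71.1%, against 49.4% of all tested genes. Of the members 18 were higher and 46 lower in batch 2, while of all genes 16.0% were higher and 33.4% lower. The median difference was -0.11 on the log2 scale, against -0.06 over all genes. All 4 complex II genes and 5 of the 8 assembly factors were lower in batch 2, and none of either was higher. In complex I 9 were higher and 19 lower, in complex III 3 and 5, in complex IV 3 and 6, and in complex V 3 and 7. The count was also 64 without WT F1 and WT M3. The 7 neuron markers summed to between 2562 and 2868 RPKM in batch 2 apart from WT M3 at 2289, against 2063 to 2323 in batch 1, and their part in these differences was not tested.

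Members of one complex went opposite ways. In the F1 stalk of complex V, Atp5e was lower in batch 2 (log2 difference -0.69, SE 0.12) and Atp5d higher (0.41, SE 0.05). In complex I, Ndufc1 (-0.61, SE 0.08) and Ndufa1 (-0.55, SE 0.07) were lower and Ndufa12 (0.50, SE 0.10) higher. In complex III, Uqcrq was higher (0.41, SE 0.06), and in complex IV, Cox7c was lower (-0.53, SE 0.06) and Cox6a2 higher (0.55, SE 0.17). Atp5g3, one of 3 genes for the c subunit that forms the rotor ring of ATP synthase, ranged from 133.54 to 241.18 RPKM in batch 2 (median 161.63), against 215.06 to 267.97 in batch 1 (median 244.21). The batches overlapped through WT M3 alone, whose 241.18 RPKM lay among the values of batch 1, and the other 12 libraries of batch 2 reached at most 184.76.

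The c subunit genes, which encode the same mature protein behind different import signals, shifted in share with the batch. Atp5g3 supplied 38.6% (median) of the summed RPKM of Atp5g1, Atp5g2 and Atp5g3 in batch 2, against 45.9% in batch 1. The median share of Atp5g1 was 36.9% in batch 2, against 28.6% in batch 1, and that of Atp5g2 was 24.8%, against 25.4%. Without WT M3, 27 members (30.0%) did not overlap between the batches, against 9.98% of all genes, and in 22 of the 27 WT M3 lay nearer to the mean of batch 1. With WT M3, 6 members (6.67%) did not overlap, against 1.92% of all genes. WT M3 counts as batch 2 in the model, and with it placed in batch 1 and the sex letters of WT F1 and WT M3 set by Ddx3y, 68 members were called (75.6%), against 54.5% of all genes.

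**Figure D5:**
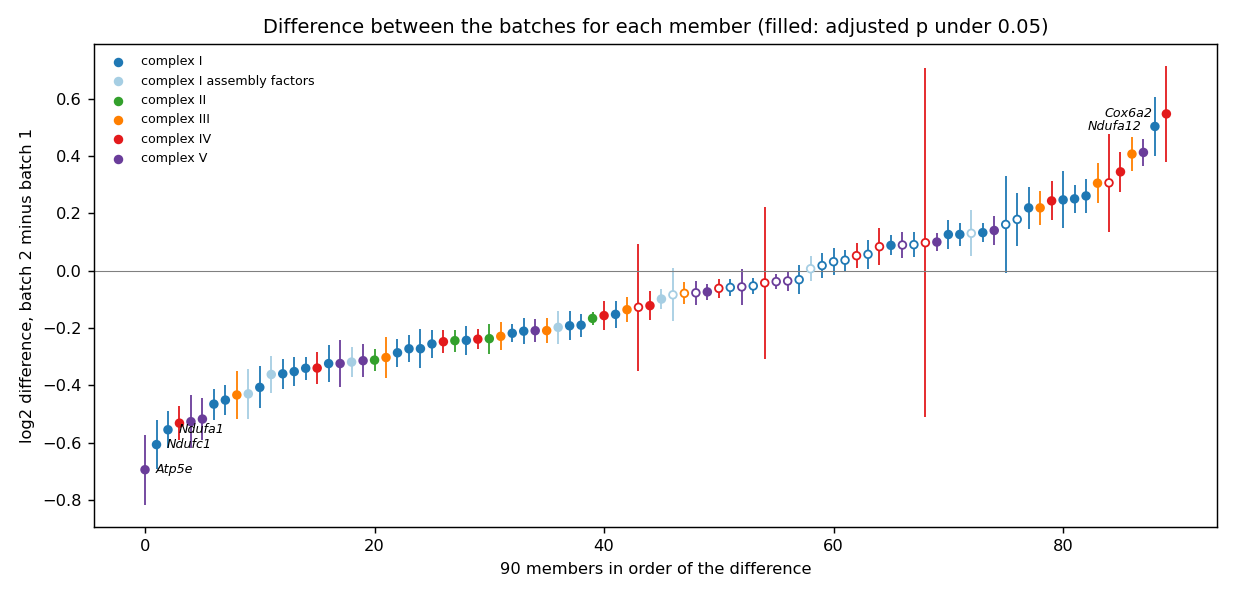
Log2 difference between batch 2 and batch 1 for each of the 90 members in order of its size, with the SE as a bar and filled points for an adjusted p under 0.05 (limma). Of the members 46 are lower and 18 higher in batch 2, from Atp5e at -0.69 to Cox6a2 at 0.55.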

How the data were processed

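Hippocampal messenger RNA was sequenced in 23 libraries, purified with oligo(dT) beads per the labels' protocols. The deposited table holds RPKM computed by the authors, with their log2 fold change, p-value and adjusted p-value for 6 comparisons, whose test the sources used here do not name. Alignment was with HISAT to mm10, per the submitters' processing notes. The way reads were counted is not stated, so near-identical copies such as Ndufb4c are uncertain. No per-sample column was left unused.

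Groups came from the labels, batch from the molecule label and sex from the letter of the title. Log2(RPKM + 0.1) of the 13971 genes with a mean RPKM of at least 0.5 was fitted in R 4.3.3 by limma 3.58.1 (intensity trend) with all 4 groups, batch and sex letter in the model. P-values are two-sided and adjusted by Benjamini-Hochberg over all tested genes, with calls at an adjusted p under 0.05. The 6 group comparisons, the batch term, its interactions and the interaction of Dp16 against WT with the sex letter were tested. The fit was tested on simulated data for Dp16 against WT. It recovered 24.2% of genes with a log2 change of 0.25 and 79.0% of those with 0.5, so changes near 0.25 would mostly be missed. Fold changes on this scale understate the change of low genes. RPKM summed to 353904 to 373054 per library. Depth was estimated from low values, of which 49.8% to 57.9% lay within 0.15 read of a whole number, so reads were not recovered.

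The members and lists were chosen with earlier results of these data known. Named members are the called ones, the 2 highest of each complex, the 3 largest differences in each direction in each comparison with a mean RPKM of at least 1, the isoform genes, the 3 most and 3 least variable with a mean of at least 5, and the 3 genes set aside. Cox7c, Uqcrq, Atp5d and genes at the ends of ranges were also named after their values were seen. Promoters came from RefSeq, matched by gene ID, and 18 members had no entry. Alternatives varied the pseudocount, filter, scaling, covariates, batches and libraries.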

Additional observations from a re-analysis of the deposited data

Results flagged for a closer look

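Of 200 groups of libraries examined over 43 named genes and the sums of the complexes, 7 held 1 library far from the others. About 1 in 20 groups would be flagged by chance if the groups were independent. They share libraries and the sums contain named genes, so no conclusion is drawn from 7 of 200. In WT, M2 had 535.5 RPKM of Atp5b, against 511.4 to 516.2 in the other WT libraries, and 25.39 RPKM of Ndufb4c, against 15.52 to 18.15. WT F2 had 87.68 RPKM of Ndufab1, against 76.5 to 79.52 in the others. WT M4 had 61.26 RPKM of Sdhb, the iron-sulfur subunit of complex II, against 82.44 to 89.55. WT M3 had a summed complex IV level of 3366 RPKM, against 3033 to 3070. Dp16 M2 had 5.88 RPKM of Cox7a1, against 1.53 to 3.21 in the other Dp16 libraries. The library labelled Dp16/D-KO F2 had 6.88 RPKM of Cox6b2, against 2.26 to 3.94 in the other libraries of that group.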

How the results depend on the processing

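The count of called members changed by 1 to 3 with some settings. In Dp16 against WT it was 1 in batch 1 alone and 0 to 3 with 1 library left out. In Dp16/D-KO against Dp16 it was 1 with only those groups in the fit, without WT F1 and WT M3, and with WT M3 in batch 1 and the sex letters of both set by Ddx3y, and 0 to 1 with 1 library left out. In Dp16/D-KO against WT it was 2 with the libraries rescaled by their median ratio, and 0 without batch in the model, with only those groups in the fit, in either batch alone, without WT F1 and WT M3, and with a replicate block, and 0 to 4 with 1 library left out. In Dp16;D-KO/K-KO against Dp16 it was 1 with WT M3 in batch 1 and the exchanged letters, and 0 to 1 with 1 library left out. The median over the members in Dp16;D-KO/K-KO against Dp16/D-KO was 0.0448 in batch 1 alone, and against WT 0.11 in batch 1 alone and -0.12 in batch 2 alone. The cause was not tested.

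In batch 1 alone the log2 change turned for Cox8b (0.75) and Ndufa12 (0.12) in Dp16;D-KO/K-KO against Dp16, and for Atp5k (0.0625), Ndufa5 (0.00028) and Cox7a1 (-0.0353) in Dp16;D-KO/K-KO against WT. In batch 2 alone it turned for Cox6a2 in Dp16/D-KO against WT (0.0102), Cox6b2 in Dp16;D-KO/K-KO against Dp16 (-0.26), Cox8b in Dp16;D-KO/K-KO against Dp16/D-KO (-0.57) and Ndufaf8 in Dp16;D-KO/K-KO against WT (-0.0401). Without WT F1 and WT M3 it turned for Cox8b in Dp16 against WT (-0.51) and Cox7a1 in Dp16;D-KO/K-KO against WT (-0.15). With 1 library left out, the log2 change ran from -0.0716 to 0.988 for Cox8b in Dp16 against WT, from -0.96 to 0.18 for Cox8b in Dp16;D-KO/K-KO against Dp16, and from -0.0107 to 0.422 for Cox7a1 in Dp16;D-KO/K-KO against WT. None of these values passed the test.

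Genes called ran over the settings from 49 to 275 in Dp16 against WT, 0 to 105 in Dp16/D-KO against Dp16, 46 to 387 in Dp16/D-KO against WT, 0 to 33 in Dp16;D-KO/K-KO against Dp16, 0 to 1 in Dp16;D-KO/K-KO against Dp16/D-KO and 51 to 116 in Dp16;D-KO/K-KO against WT. Libraries that share a replicate label in other groups did not deviate together (mean r -0.04 over 29 pairs, 6 of them over 0.1), so the labels were not taken to pair them. The replicate block left 0 members called in all 6 comparisons, against 1 without it, and 199 genes in Dp16 against WT.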

Other observations

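The most even members with a mean of at least 5 RPKM were Atp5f1, a stalk subunit of complex V (SD of the log2 level 0.07 over 23 libraries), Ndufa10 (0.07) and Ndufb3 (0.08), both complex I subunits. Ndufb3 averaged 54.7 ± 2.66 RPKM in Dp16;D-KO/K-KO (SD, n = 5), 57.8 ± 2.54 in Dp16/D-KO (n = 6), 58.8 ± 2.73 in Dp16 (n = 7) and 54.8 ± 2.26 in WT (n = 5). Ndufb4c, which has near-identical copies, had an SD of 0.40 and ranged from 14.5 to 26.8 RPKM in Dp16;D-KO/K-KO and from 15.5 to 25.4 in WT.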
